A study of Mus musculus with 8 samples.

Results

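This section describes 10 genes of iron handling, metal binding and antioxidant defense in mesenchymal stem/progenitor cells (MSPCs) of mouse bone marrow. They are Fth1, Ftl1, Tfrc, Slc40a1, Hmox1, Nqo1, Gclc, Gclm, Mt1 and Mt2, chosen by name for their function and found by Ensembl identifier among the 52636 genes of the count table. All 10 had a count above 0 in each of the 8 libraries and were therefore among the 14598 genes tested. Each library held poly(A) RNA of the MSPCs of 1 mouse on a C57BL/6 background, 6 weeks old by the labels, although the methods give older ages for the mice of the study. All mice carried the Flk2-cre transgene and a Kitl allele that expresses GFP, and 4 were controls (CTR, Flk2-cre+ Cxcr4fl/+) and 4 were conditional knockouts (cKO, Flk2-cre+ Cxcr4fl/fl). Cre driven by Flk2 removes Cxcr4 from multipotent hematopoietic progenitors and their progeny, so the sorted MSPCs were not the deleted cells, and the comparison asks whether niche cells changed when the progenitors around them lacked CXCR4. The sort kept PDGFRα+ GFP+ cells without CD45, Ter119, CD31 or CD144. The gate of these bulk samples did not use the transferrin receptor, the product of Tfrc.

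Total counts lay between 31047344 and 38216877 per library. The MSPC genes Lepr and Cxcl12 had at least 117089 and 1294897 counts in every library, while genes of other cell types were far lower. The summed level was 5.05 to 14.2 CPM for 7 endothelial genes, of which Emcn (13 to 173 counts) and Stab2 (5 to 90 counts) were present in every library and Tek had 0 counts in all, and at most 12.9 CPM for lymphoid genes, of which Ighm reached 329 counts. For 8 granulocyte genes it was 135 CPM in CTR1, 150 CPM in cKO2 and 32.3 to 85.0 CPM in the other libraries. Erythroid and macrophage genes were also present, and their values stand beside the genes they bear on. The titles carry a number in brackets that the labels leave unexplained. It fell between 67 and 86 for replicates 1 and 3 of both genotypes and between 26 and 32 for replicates 2 and 4, so that each range holds 2 libraries of either genotype.

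Cells store iron in ferritin, a shell of heavy chains (Fth1), which oxidize iron, and light chains (Ftl1), which help it to mineralize. Iron enters through the transferrin receptor (Tfrc), leaves through ferroportin (Slc40a1), the cellular iron exporter, and is set free from heme by heme oxygenase 1 (Hmox1). When iron is scarce, iron regulatory proteins bind stem-loops called iron-responsive elements. A stem-loop in the 5′ UTR blocks translation, as in ferritin and ferroportin, and stem-loops in the 3′ UTR protect the Tfrc transcript from decay, so transcript counts follow this control for Tfrc and not for ferritin. Nqo1, a quinone reductase, and Gclc and Gclm, the catalytic and the modifier subunit of glutamate-cysteine ligase, which makes the first intermediate of glutathione, are targets of the transcription factor NRF2. Hmox1 and the ferritin genes are also among its targets. Metallothioneins (Mt1 and Mt2) are small cysteine-rich proteins that bind zinc and copper and are induced by metals, through the factor MTF1 and metal response elements, and by glucocorticoids.

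The stem-loops are shown because they set apart the transcripts whose level follows iron supply from those whose translation does. A search of the GENCODE M21 transcripts on GRCm38 for an unpaired C, 5 base pairs and a CAGTGN loop, with G paired to U allowed, found this hairpin in the 5′ UTR of 30 of 20200 genes (0.149%) and in the 3′ UTR of 128 of 20884 genes (0.613%). It was found once in the 5′ UTR of Fth1, Ftl1 and Slc40a1 and 4 times in the 3′ UTR of Tfrc. Each hairpin is 27 bases long, and capitals mark the CAGTG of the loop.
Fth1: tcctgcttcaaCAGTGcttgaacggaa
Ftl1: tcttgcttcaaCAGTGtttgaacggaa
Slc40a1: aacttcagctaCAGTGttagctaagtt
Tfrc a: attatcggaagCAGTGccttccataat
Tfrc b: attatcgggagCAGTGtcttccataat
Tfrc c: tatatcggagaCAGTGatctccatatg
Tfrc d: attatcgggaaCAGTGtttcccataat
The Fth1 hairpin lies at chr19:9982733-9982759 on the plus strand, that of Ftl1 at chr7:45459780-45459806 on the minus strand and that of Slc40a1 at chr1:45925466-45925492 on the minus strand. The Tfrc hairpins lie within 491 bases of each other on the plus strand, from chr16:32631220-32631246 to chr16:32631711-32631737. A match is a description of the sequence and no measurement of binding.

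Levels are given as CPM, counts scaled to the library size with TMM factors, and between genes only per kilobase of all annotated exons (RPKM). Per length, Fth1 (1150 ± 103 RPKM, SD, n = 8) and Ftl1 (736 ± 148) had ranks 25 and 41 among the 14598 genes. Slc40a1 (54.4 ± 14.7), Hmox1 (34.7 ± 7.19) and Mt1 (30.0 ± 7.34) followed, with ranks between 794 and 1589, and Hmox1 and Mt1 differed by less than 1 SD. Mt2 (14.4 ± 6.03), Nqo1 (11.2 ± 1.40), Gclc (8.18 ± 1.92) and Gclm (6.76 ± 1.96) had ranks between 3275 and 5867. Mt2 and Nqo1 differed by less than the SD of Mt2, and Gclc and Gclm by less than the SD of either, while Nqo1 and Gclc were further apart than the SD of either. Tfrc had the lowest level per length (1.16 ± 0.688 RPKM, rank 11354). MSPC libraries thus held transcripts of the exporter at a median of 48.2 times those of the importer per length, with a range of 22.0 to 266 over the 8 libraries. When the length of the principal transcript was used in place of all exons, this median was 102, since GENCODE annotates 9000 exonic bases for Slc40a1 and 3370 for its principal transcript. With that length, Mt1 (68.1 CPM per kilobase) stood above Hmox1 (38.8), and the order of the other genes did not change. The median ratio of Fth1 to Ftl1 was 2.67 with that length and 1.59 with all exons.

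**Figure D1:**
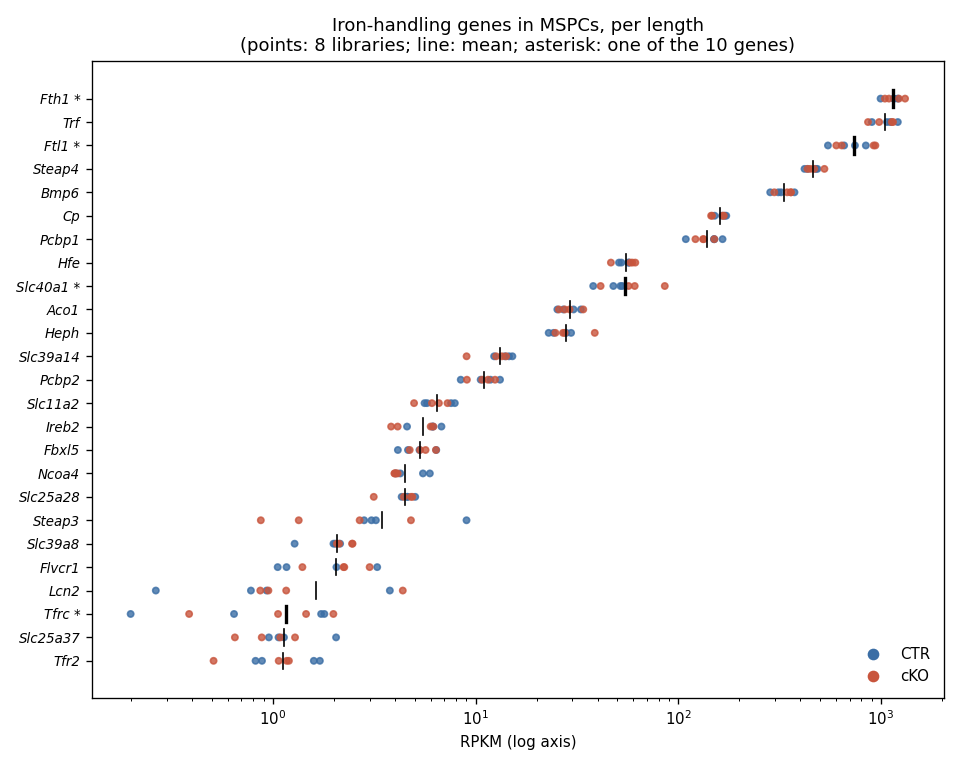
RPKM on a log axis for tested genes of iron handling, with a point for each of the 8 libraries (blue, CTR and red, cKO) and a line for the mean, ordered by mean. Fth1, Trf and Ftl1 lead the list, and Tfrc and Tfr2 stand at its lower end, with the Tfrc points among the most widely spread.

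Other genes of iron handling give the setting. The list holds 29 genes, of which 26 were tested and Hjv, Hamp and Cybrd1 were not. Fth1 was its most abundant member. The 4 genes named next were chosen after their levels were seen. Trf, which encodes the plasma iron carrier transferrin, stood at 1050 RPKM (rank 28), between the ferritin chains. Steap4, a metalloreductase, stood at 462 RPKM, Bmp6, the signal by which iron stores raise hepcidin in the liver, at 331 RPKM, and Cp, the ferroxidase that works with ferroportin, at 160 RPKM (rank 205). Per length, the transferrin receptors Tfrc and Tfr2 (1.12 RPKM) and Slc25a37, the mitochondrial iron importer mitoferrin, were the 3 least abundant.

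**Figure D2:**
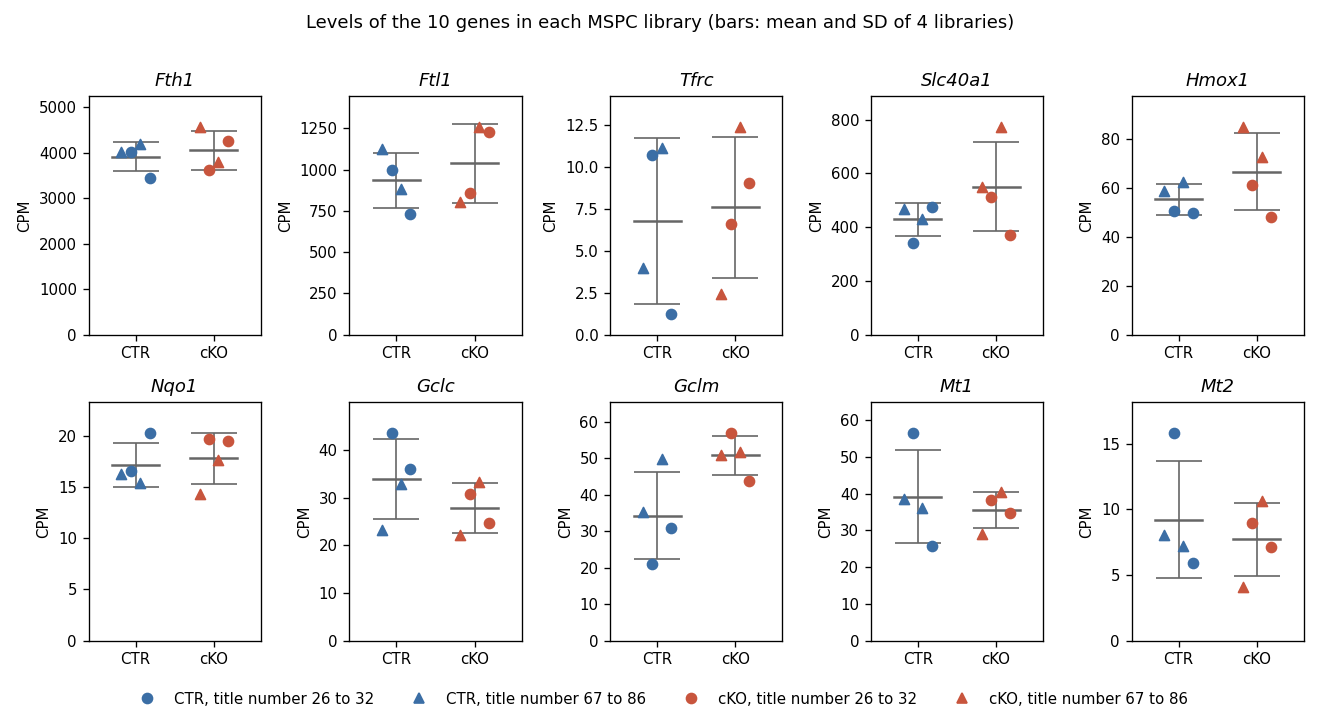
CPM (linear axes from 0) of each of the 10 genes in the 4 CTR (blue) and 4 cKO (red) libraries, with circles for title numbers 26 to 32 and triangles for 67 to 86, and bars for the mean and SD. The genotypes overlap in every panel, and Gclm has the least overlap, with CTR3 at 49.8 CPM above cKO4 at 43.8 CPM.

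Fth1 (ENSMUSG00000024661.6, chr19:9980598-9985098) varied least of the 10 genes. It stood at 4017, 4011, 4195 and 3451 CPM in CTR1 to CTR4 and at 4558, 3625, 3796 and 4249 CPM in cKO1 to cKO4. The highest library was 1.32 times the lowest, and the genotypes overlapped. The cKO level was 1.04-fold that of CTR (95% interval 0.868 to 1.23), and the log2 difference of 0.05 (SE 0.11) had an adjusted p of 0.999 in the quasi-likelihood test of edgeR (Benjamini-Hochberg). Of 69-base windows of the Fth1 principal transcript, 2.72% occur in the transcript of another gene, Gm6977, which had at most 61 counts beside at least 123461 for Fth1.

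Ftl1 (ENSMUSG00000050708.16, chr7:45457944-45459884) stood at 1127, 996.2, 881.5 and 733.3 CPM in CTR1 to CTR4 and at 806.1, 857.1, 1256 and 1231 CPM in cKO1 to cKO4. The libraries thus fell into a higher set, CTR1, CTR2, cKO3 and cKO4, and a lower set, which cut across genotype and title number. Gm22133, a small RNA gene annotated inside the last exon of Ftl1 on the same strand, divided the libraries in the same way. It had 8340, 8941, 10797 and 11412 counts in CTR1, CTR2, cKO3 and cKO4 and 1 count in each of the other 4. When its CPM was subtracted from that of Ftl1, the libraries ranged from 722 to 934 CPM, 1.29-fold in place of 1.71-fold, and the SD of log2 CPM was 0.14 in place of 0.29. When it was added instead, they ranged from 733 to 1588 CPM, 2.17-fold, with an SD of 0.45. Whether its reads were also counted for Ftl1 was not tested. How reads of this exon came to be counted in Gm22133 in 4 libraries was not tested.

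Each of these sets held 2 libraries of each genotype. The log2 difference of Ftl1 between cKO and CTR was 0.15 (SE 0.18, 95% interval -0.25 to 0.56, adjusted p = 0.999 in edgeR). As a difference of mean log2 CPM, it was 0.14 with the counts as deposited (exact permutation p = 0.543) and 0.14 with the Gm22133 reads subtracted (exact permutation p = 0.2). With these reads added, it was also 0.14 (exact permutation p = 0.571). Ftl1 counts hold a further uncertainty, as 72.1% of the 69-base windows of its principal transcript also occur in transcripts of other genes, above all Ftl1-ps1 (67.6%). Ftl1-ps1 had 116 to 395 counts, at most 1.277% of those of Ftl1, and reads that matched both equally well cannot be placed from these counts. The opposite-strand gene Gm10252, which overlaps the start of Ftl1, had 8621 to 11544 counts, and it is not stated whether counting used the strand.

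**Figure D3:**
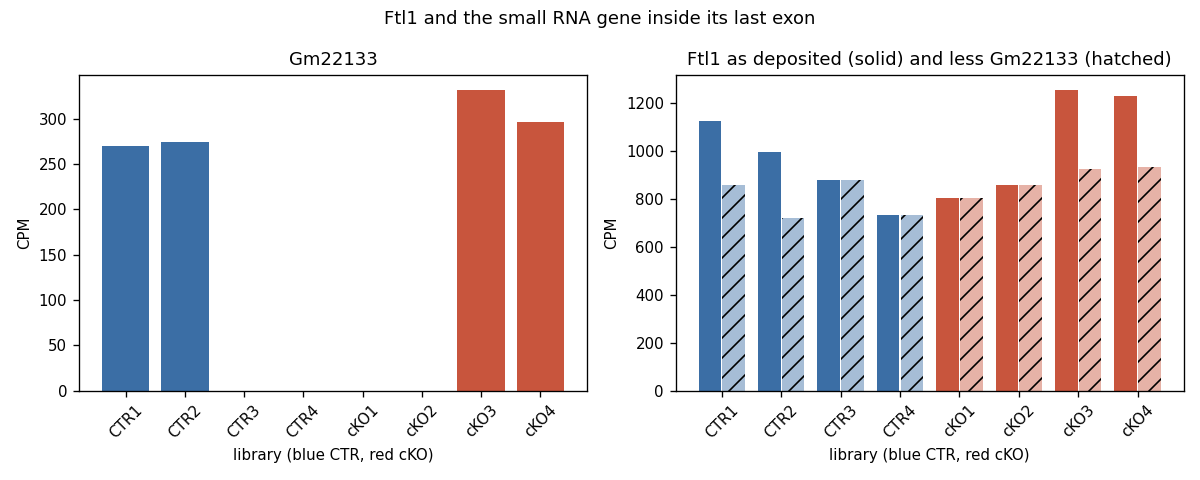
CPM of Gm22133 (left) and of Ftl1 as deposited and with the Gm22133 CPM subtracted (right) in each library, bars starting at 0, CTR in blue and cKO in red. Gm22133 stands at 270 to 332 CPM in CTR1, CTR2, cKO3 and cKO4 and near 0 in the others, and subtracting it brings all Ftl1 values between 722 and 934 CPM.

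Tfrc (ENSMUSG00000022797.15, chr16:32608920-32632794), the iron importer, varied most. It stood at 3.98, 10.7, 11.1 and 1.23 CPM in CTR1 to CTR4 and at 2.39, 6.56, 12.3 and 9.02 CPM in cKO1 to cKO4, or 46 to 401 counts. Each genotype held libraries at the low and at the high end. The SD of log2 CPM was 1.19, above that of 96.9% of the 2757 genes within 2-fold of its mean CPM, whereas counting alone gives a coefficient of variation of 14.7% at the lowest count. The fold of cKO over CTR was 1.12 with a 95% interval from 0.408 to 3.09 (adjusted p = 0.999 in edgeR), so that a change of 2-fold in either direction lay within the interval.

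Tfrc is also a marker of erythroid precursors. The summed level of 12 erythroid genes, globins among them, was 82.3 to 219 CPM in CTR and 180 to 296 CPM in cKO. It was lowest in CTR4 (82.3 CPM) and highest in cKO3 (296 CPM), the libraries with the lowest and the highest Tfrc, but it was 219 and 226 CPM in CTR1 and cKO1, where Tfrc was at 3.98 and 2.39 CPM. All 12 erythroid genes had counts in every library. Klf1, an erythroid transcription factor of precursors, chosen after its values were seen, stood at 4.63, 10.1, 3.45 and 1.28 CPM in CTR1 to CTR4 and at 3.49, 5.59, 6.83 and 6.94 CPM in cKO1 to cKO4. Like Tfrc, it was lowest in CTR4 and low in CTR1 and cKO1, but it was also low in CTR3, where Tfrc was at 11.1 CPM. Other erythroid genes, also chosen after their values were seen, went different ways in cKO1. Alas2 was at its highest there (11.1 CPM) and Ermap at its lowest (0.337 CPM). Rhag stood at 6.0 CPM in cKO1, within a range of 1.49 to 9.87 CPM over the libraries. The part of erythroid RNA in the Tfrc counts was not tested. In bulk samples, fewer cells of a type and less RNA per cell cannot be told apart.

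Slc40a1 (ENSMUSG00000025993.10, chr1:45908068-45926523), the exporter, stood at 466.1, 341.9, 430.3 and 475.7 CPM in CTR and at 547.9, 510.7, 770.7 and 372.3 CPM in cKO. Of the cKO libraries, 3 lay above all CTR libraries, and cKO4 lay within their range. The fold of cKO over CTR was 1.28 (95% interval 0.943 to 1.75), a log2 difference of 0.36 (SE 0.2, unadjusted p = 0.102 and adjusted p = 0.999 in edgeR). Without cKO3, the highest library, the log2 difference was 0.15 (unadjusted p = 0.371 in edgeR), and without cKO4, the lowest of the cKO libraries, it was 0.51 (unadjusted p = 0.0156 in edgeR). It was 0.11 within the title numbers 26 to 32 and 0.54 within 67 to 86.

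Hmox1 (ENSMUSG00000005413.8, chr8:75093621-75100589), the heme-degrading enzyme, stood at 58.7, 50.3, 62.2 and 49.7 CPM in CTR and at 84.6, 61.0, 72.4 and 47.9 CPM in cKO. The cKO libraries held the highest and the lowest values. The fold of cKO over CTR was 1.20 (95% interval 0.926 to 1.56), a log2 difference of 0.27 (SE 0.17, adjusted p = 0.999 in edgeR). It was 0.12 without cKO1 (unadjusted p = 0.452 in edgeR) and 0.40 without cKO4 (unadjusted p = 0.0224 in edgeR).

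Of the 10 genes, Hmox1 had the smallest p-value of edgeR between the title number groups. In 67 to 86 it stood at 69.5 ± 11.6 CPM (SD, n = 4) and in 26 to 32 at 52.2 ± 5.95, with CTR1 at 58.7 CPM below cKO2 at 61.0 CPM as the point of overlap. The log2 difference was 0.40 (SE 0.11), with an unadjusted p of 0.00682 and an adjusted p of 0.261 in edgeR with genotype as a term. It was 0.27 within CTR and 0.53 within cKO, and between 0.31 and 0.44 when each library was left out in turn. The exact permutation p of Hmox1 log2 CPM between these groups was 0.0571, the same as for Nqo1, which was lower in 67 to 86.

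Macrophages that recycle red cells express Hmox1, Slc40a1 and Spic. The summed level of 13 macrophage genes was 23.9 to 28.3 CPM in CTR2, CTR4 and cKO4, the libraries with the lowest Hmox1 (47.9 to 50.3 CPM), and 39.5 to 56.3 CPM in the other 5. Marco had 0 counts in all libraries, and Adgre1, Siglec1, Mrc1 and Timd4 had 0 in at least 1. By genotype the sum was 23.9 to 53.1 CPM in CTR and 28.3 to 56.3 CPM in cKO. Lyz2 alone made up 25.0 CPM of it in CTR1 and 25.7 CPM in cKO2, against 4.32 to 7.23 CPM in the other libraries. CTR1 and cKO2 also had the highest sums of the granulocyte genes. Of the 8 macrophage genes tested, all 8 had a higher level in cKO (median log2 difference 0.45), with C1qb (1.22, SE 0.5) at an unadjusted p of 0.0366 in edgeR, and of the 12 erythroid genes 9 were higher and 3 lower (median 0.35), with 0 at an unadjusted p under 0.05. Of all 14598 genes, 7267 were higher in cKO, and 4.43% had an unadjusted p under 0.05 in edgeR. By title number, 7 of the 8 macrophage genes were higher in 67 to 86, with C1qa, C1qb and Spic at an unadjusted p under 0.05. Of the 12 erythroid genes, 7 were higher and 5 lower in 67 to 86 (median log2 difference 0.46). At an unadjusted p under 0.05, 5 were higher and 0 lower. Of all genes, 7160 were higher in 67 to 86, and 11.6% had an unadjusted p under 0.05 in edgeR. Slc40a1, at 475.7 CPM in CTR4, was not low in all 3 of the libraries with the lowest Hmox1. The part of macrophage or erythroid RNA in the Hmox1 and Slc40a1 differences, by genotype or by title number, was not tested.

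Among the NRF2 targets, Nqo1 (ENSMUSG00000003849.8, chr8:107388225-107403206) varied little. It stood at 16.2, 16.6, 15.4 and 20.2 CPM in CTR and at 14.4, 19.7, 17.7 and 19.5 CPM in cKO. The genotypes overlapped fully, with a fold of 1.04 (95% interval 0.799 to 1.36, adjusted p = 0.999 in edgeR). Its SD of log2 CPM (0.18) was above that of only 12.8% of the 4353 genes within 2-fold of its mean CPM. By title number, Nqo1 stood at 15.9 ± 1.4 CPM (SD, n = 4) in 67 to 86 and at 19.0 ± 1.64 CPM in 26 to 32. This log2 difference of -0.25 (SE 0.15) had an unadjusted p of 0.132 and an adjusted p of 0.557 in edgeR. The exact permutation p was 0.0571.

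Gclc (ENSMUSG00000032350.9, chr9:77754535-77794485), the catalytic subunit, stood at 23.2, 43.4, 32.9 and 35.9 CPM in CTR and at 22.1, 30.8, 33.3 and 24.7 CPM in cKO. Its lowest values were found in both genotypes and its highest in CTR2. The log2 difference of -0.29 (SE 0.21, fold 0.818, 95% interval 0.596 to 1.12) had an adjusted p of 0.999 in edgeR. It was -0.15 without CTR2 and -0.43 without CTR1.

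Gclm (ENSMUSG00000028124.15, chr3:122245557-122270732), the modifier subunit that makes the catalytic one more active, stood at 35.4, 20.9, 49.8 and 30.9 CPM in CTR and at 51.0, 56.9, 51.7 and 43.8 CPM in cKO. Of the 4 cKO libraries, 3 lay above all CTR libraries, and cKO4 lay below CTR3. Gclm had the largest difference of the 10 genes between genotypes, a fold of 1.48 (95% interval 1.05 to 2.11) and a log2 difference of 0.57 (SE 0.23). The unadjusted p was 0.0303 in edgeR and the adjusted p 0.999, and the exact permutation p of log2 CPM was 0.0571, where 0.0286 is the smallest that 4 against 4 libraries allow. Without CTR2 the log2 difference was 0.39 (unadjusted p = 0.0556) and without CTR3 0.80 (unadjusted p = 0.00222), both in edgeR. It was 0.97 within the title numbers 26 to 32 and 0.29 within 67 to 86, and the test of this difference gave an unadjusted p of 0.0884 and an adjusted p of 1.0 in edgeR. Antisense and pseudogene models within Gclm exons had at most 83 counts beside at least 682 for Gclm.

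The log2 differences of the subunits of glutamate-cysteine ligase had opposite signs. The ratio of Gclm to Gclc per length was 0.913, 0.288, 0.906 and 0.514 in CTR and 1.38, 1.10, 0.930 and 1.06 in cKO. All cKO values lay above all CTR values, by a gap of 0.913 to 0.930. The log2 difference of the ratio was 0.91, and it was 0.56 without CTR2, the library with the highest Gclc and the lowest Gclm. This ratio was among 5 pairs chosen after the levels had been seen and is given without a test. In each of the other pairs, the ratios of CTR and cKO overlapped. Gclm had the largest positive log2 difference of the members (0.57) and Gclc the largest negative one (-0.29). Their choice as a pair therefore favors a separation. How often the ratios of other gene pairs separate was not tested. Within 67 to 86 the log2 difference of the Gclm to Gclc ratio was 0.32 and within 26 to 32 it was 1.49.

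**Figure D4:**
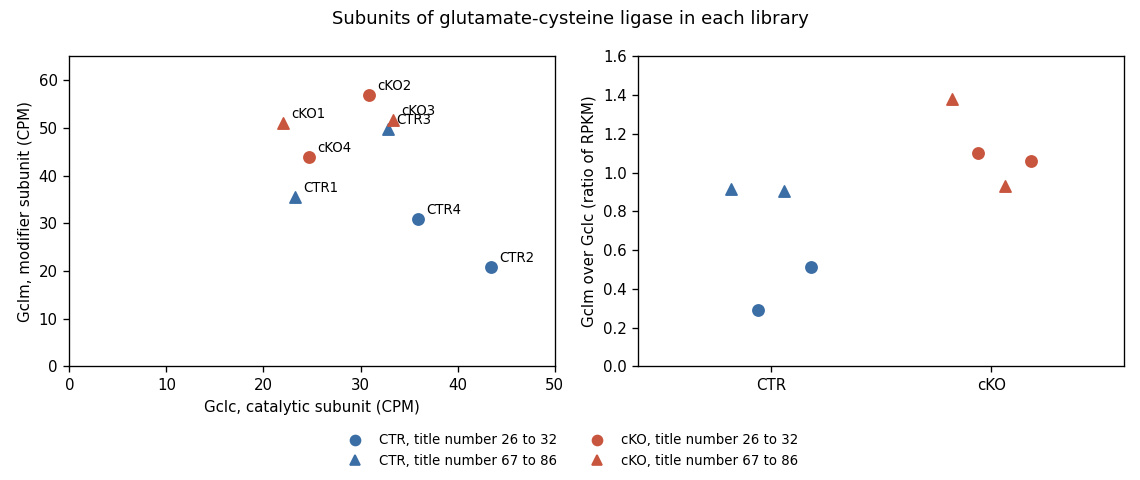
Left, CPM of Gclm against CPM of Gclc for each library, and right, the ratio of Gclm to Gclc in RPKM by genotype, with CTR in blue, cKO in red, circles for title numbers 26 to 32 and triangles for 67 to 86. CTR2 and CTR4 have the lowest ratios (0.288 and 0.514), and the other 6 libraries lie between 0.906 and 1.38.

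Mt1 (ENSMUSG00000031765.8, chr8:94179082-94180327) and Mt2 (ENSMUSG00000031762.7, chr8:94172664-94173568) lie 5.51 kb apart on the same strand. Mt1 stood at 38.63, 56.37, 36.03 and 25.74 CPM in CTR and at 29.0, 38.2, 40.3 and 34.8 CPM in cKO. Mt2 stood at 8.02, 15.8, 7.21 and 5.89 CPM in CTR and at 4.10, 8.95, 10.7 and 7.15 CPM in cKO. CTR2 was the highest library for both genes. The folds of cKO over CTR were 0.908 for Mt1 (95% interval 0.648 to 1.27) and 0.837 for Mt2 (95% interval 0.463 to 1.51), each with an adjusted p of 0.999 in edgeR, and both log2 differences changed sign without CTR2 (0.083 for Mt1 and 0.13 for Mt2).

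The levels of the metallothionein genes were compared over the libraries. Over all 8, Pearson's r of log2 CPM was 0.91 (exact permutation p = 0.00446, adjusted p = 0.201 over the 45 pairs of the 10 genes) and Spearman's rho was 0.95 (exact permutation p = 0.00114, adjusted p = 0.0513), so that neither passed 0.05 after adjustment. Without the 2 libraries farthest from the Mt1 median, r was 0.98. Each title number group holds only 4 libraries, too few for a value of its own. No 69-base window of the principal transcript of either gene occurs in a transcript of the other or of any further gene. The opposite-strand gene Gm45774 overlaps exons of Mt2 and had 31 to 160 counts beside 134 to 515 for Mt2, and with strand use not stated their reads may not be fully apart. The ratio of Mt1 to Mt2 per length lay between 1.69 and 3.34. Mt3 and Mt4, the brain and the epithelial metallothionein, had 0 counts in all libraries.

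Promoter windows of Mt1 and Mt2 are shown because these neighboring genes are both known to answer to metals. They comprise the 250 bases before the start of the RefSeq transcript on GRCm38.p6, at chr8:94178839-94179088 for Mt1 and chr8:94172368-94172617 for Mt2, plus strand. Capitals mark matches to TGCACNC or TGCGCNC, the core of the metal response element, on either strand. GENCODE also annotates transcripts of Mt1 that start further downstream.
Mt1: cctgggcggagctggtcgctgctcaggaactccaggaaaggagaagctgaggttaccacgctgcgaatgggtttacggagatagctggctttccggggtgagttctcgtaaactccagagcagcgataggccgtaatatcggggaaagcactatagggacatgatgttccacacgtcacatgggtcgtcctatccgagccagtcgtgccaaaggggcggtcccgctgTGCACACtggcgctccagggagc
Mt2: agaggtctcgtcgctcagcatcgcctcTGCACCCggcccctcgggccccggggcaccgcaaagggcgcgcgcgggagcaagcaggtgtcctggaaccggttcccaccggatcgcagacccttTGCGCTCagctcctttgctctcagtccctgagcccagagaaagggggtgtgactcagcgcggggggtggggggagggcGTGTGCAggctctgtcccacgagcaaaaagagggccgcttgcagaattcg
In these windows, Mt2 has 3 matches, at -223, -128 and -50 from the start, and Mt1 has 1, at -23. Bases after the RefSeq start were not searched, so the window of Mt1 leaves out those just before its starts further downstream. The counts are therefore no comparison of the whole promoters of Mt1 and Mt2. Of the other members, Gclm has 2, at -138 and -72, and a start of Tfrc has 2 that overlap, at -53 and -50. At least 1 match is present in 21.4% of the 32851 promoters of this length and 3 or more in 1.26%. TGACNNNGC, the core of the antioxidant response element bound by NRF2, is present in 10.2% of these promoters, and among the members it was found in Gclm (at -134) and Mt2 (at -79) and not in the windows of Mt1, Nqo1, Tfrc, Fth1 and Ftl1. Promoters of Slc40a1, Hmox1 and Gclc were not used here. A match is not evidence of binding, and no match says only that these letters are not in the window.

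None of the 10 genes passed the test between genotypes. In edgeR, 0 of the 10 genes and 0 of all 14598 genes (0.0%) had an adjusted p under 0.05. At an unadjusted p under 0.05, 1 member (Gclm) was found, a count that was 0 without CTR2, CTR4, cKO1, cKO2 or cKO3, 2 without CTR1 and 3 without cKO4. All genes at that level numbered 646 (4.43% of those tested), of which 343 (2.35% of the genes tested) were higher and 303 (2.08%) lower in cKO. No member had CTR and cKO values that did not overlap, as 2.62% of all genes tested had. In cKO, 7 members had higher and 3 lower levels, with a median log2 difference of 0.10 (-0.0013 over all genes), and a median size of the difference, regardless of sign, of 0.21 (0.14 over all genes). The 95% intervals bound what may have been missed, as a fold above 1.23 for Fth1 lay outside its interval, while a fold of 2 for Tfrc lay within it.

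**Figure D5:**
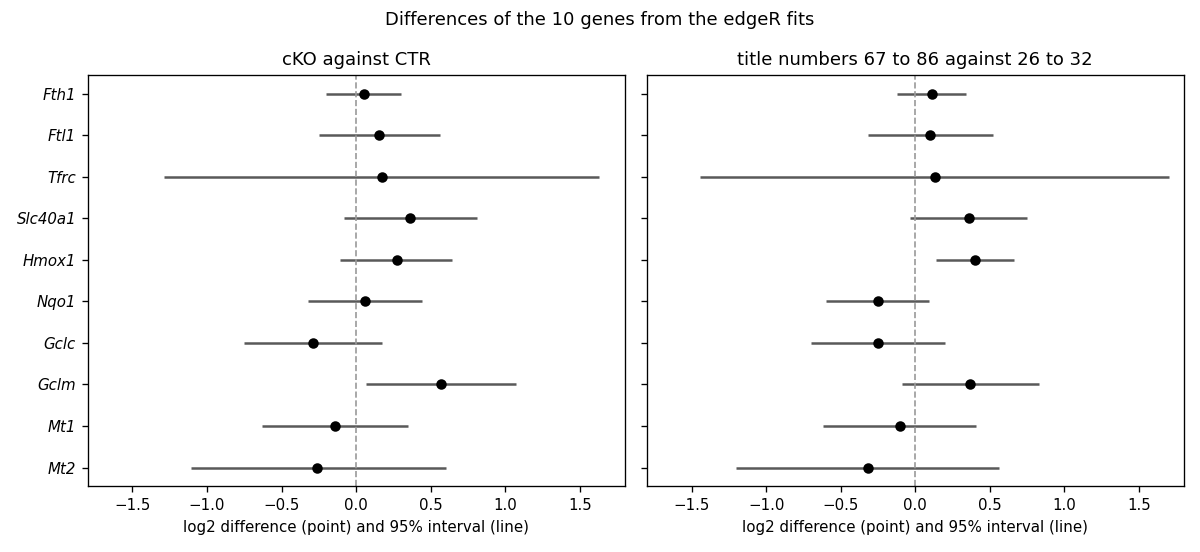
Log2 differences of the 10 genes (points) with their 95% intervals (lines) for cKO against CTR (left) and for title numbers 67 to 86 against 26 to 32 (right), from the edgeR fits. On the left only the interval of Gclm (0.066 to 1.07) excludes 0, on the right only that of Hmox1 (0.14 to 0.66), and the intervals of Tfrc are the widest.

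The title number groups were compared with genotype as a term. Between them, 2 of the 14598 genes (0.0137%) had an adjusted p under 0.05, Cldn1 (log2 difference -1.10) and Srgn (-1.40), both lower in 67 to 86 with an adjusted p of 0.0475 in edgeR. The count was 0 without a genotype term and without CTR1, CTR2 or cKO4. At an unadjusted p under 0.05 there were 1694 genes (11.6%), of which 745 (5.1% of the genes tested) were higher and 949 (6.5%) lower in 67 to 86, and Hmox1 was the only member among them. The members had adjusted p-values from 0.261 to 0.966 in edgeR, and 0 of them had groups that did not overlap, against 6.87% of all genes. For the interaction of genotype and title number, 0 members and 502 genes (3.44%) had an unadjusted p under 0.05.

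Other genes of the same pathways were described by lists chosen for their function. In the genotype comparison, 0 genes of any list passed the adjusted threshold. Of all genes tested, 4.43% had an unadjusted p under 0.05 in edgeR. Of the 26 iron-handling genes, 14 were higher and 12 lower in cKO, with a median log2 difference of 0.026 and 0 genes at an unadjusted p under 0.05. Of 24 NRF2 targets tested, 11 were higher and 13 lower (median -0.032), with Gclm higher and Abcc1, an exporter of glutathione conjugates, lower at -0.50 (SE 0.22) at an unadjusted p under 0.05. Of 9 NRF2 regulators, 3 were higher and 6 lower. Nfe2l2, which encodes NRF2 itself, stood at 116 to 135 CPM in all libraries. Of 12 metallothionein and zinc genes tested, 6 were higher and 6 lower, with the zinc importer Slc39a6 at -0.41 (SE 0.13, unadjusted p = 0.0105 and adjusted p = 0.999 in edgeR). Its CTR values, 58.7 to 65.7 CPM, all lay above its cKO values, 39.8 to 57.9 CPM. The genotypes did not overlap for 2.62% of all genes tested, and Slc39a6 was named for its p-value. The medians over these lists were all within 0.10 of 0, as that over all genes was.

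The heme, peroxide, glutathione and glucocorticoid genes were also found on either side of 0. Of 7 heme genes tested, 4 were higher and 3 lower in cKO. Haptoglobin (Hp), which binds free hemoglobin, was the most abundant of them at 4350 RPKM, rank 5 of all genes, and Bach1, the heme-sensing repressor of Hmox1, had a log2 difference of -0.48 (SE 0.25, adjusted p = 0.999 in edgeR). Of 15 peroxide and superoxide enzymes, 9 were higher and 6 lower, and Gpx3, a secreted glutathione peroxidase, was the most abundant at 2940 RPKM. Of 18 glutathione and thioredoxin genes tested, 7 were higher and 11 lower, with Gclm as the only gene at an unadjusted p under 0.05. Of 10 glucocorticoid targets, 5 were higher and 5 lower.

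Between the title number groups, 0 genes of the lists passed the adjusted threshold either. Of all genes tested, 11.6% had an unadjusted p under 0.05 in edgeR, 5.1% higher and 6.5% lower in 67 to 86. Of the 15 peroxide and superoxide enzymes, 13 were higher in 67 to 86 (median log2 difference 0.19, and -0.0065 over all genes), with Sod3, Cat and Prdx5 at an unadjusted p under 0.05. Of the 10 glucocorticoid targets, 9 were lower (median -0.32), with Tsc22d3 (-0.65, SE 0.29) and Sgk1 (-0.43, SE 0.13) at an unadjusted p under 0.05. Of the iron-handling genes, the heme exporter Flvcr1 was higher (0.89, SE 0.28) and Slc11a2 (-0.38, SE 0.11), which moves iron out of endosomes, Steap3 (-1.33, SE 0.39), which reduces it there, and Ireb2 (-0.36, SE 0.15), which encodes an iron regulatory protein, were lower at an unadjusted p under 0.05. Of the 24 NRF2 targets tested, Hmox1, Txnrd1, Sqstm1 and Esd were higher and Gsr and Slc7a11 lower at that level. Of the 18 glutathione and thioredoxin genes tested, 14 were higher and 4 lower, with 4 higher and 1 lower at that level. Of 7 heme genes, 5 were higher, with 2 at that level. Of 12 metallothionein and zinc genes, 4 were higher and 8 lower, with 0 at that level. Of 9 NRF2 regulators, 5 were higher and 4 lower, with 2 of the lower genes at that level. The sum of the erythroid genes was 82.3 to 197 CPM in 26 to 32 and 171 to 296 CPM in 67 to 86. Of the 12 erythroid genes, Hbb-bs (0.89, SE 0.19), Hbb-bt, Hba-a1, Hba-a2 and Slc4a1 were higher at an unadjusted p under 0.05, and 0 were lower at that level. The part of erythroid RNA in these values was not tested.

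The genes whose levels over the 8 libraries were most like those of a member, among 9406 genes that averaged 10 CPM or more, had Pearson's r between 0.93 and 0.99. For Hmox1 it was Acads (0.99), for Nqo1 Abca1 (0.98), for Mt1 Washc3 (0.97), for Mt2 Dmxl1 and Fkbp5 (0.96 and 0.94), for Slc40a1 Lhfp (0.96) and for Gclm Rpn2 (0.95). Among the 3 genes most like Ftl1 was Fech (0.94), which encodes the enzyme that inserts iron into heme, and Tfrc was most like Ngrn (0.94), and Gclc most like Ctsl (0.94). Of the 30 genes listed in this way, 4 were also among the 3 most alike by Spearman's rho. With 8 libraries and this many genes, such values are a description only.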

How the data were processed

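Bulk RNA-seq covered the MSPCs of 8 mice, 4 CTR and 4 cKO. Per the paper's methods, paired reads were trimmed by the authors, aligned to GRCm38 (mm10) with HISAT2 and counted per gene with HTSeq. They deposited raw counts per gene, without normalization, for 52636 genes, and 52403 of these could be given a symbol. Whether counting used the strand is not given in the sources used here. Gene positions and lengths are those of GENCODE M21, which is not the release that the methods name. Promoters are from RefSeq, and 7 members matched.

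Counts were scaled by TMM. Genes needed at least 1 count in all libraries, which left 14598, and edgeR 4.0.16 served for the tests (glmQLFit, glmQLFTest, Benjamini-Hochberg adjustment over all genes, threshold 0.05) in R 4.3.3. The genotype fit had no covariate, and the title number fit had genotype as a term. The methods name a batch correction, but the labels name no batch. Single values were tested with two-sided exact permutation tests on log2 CPM (prior count 2). Correlations used the same values. The test script was tested on simulated data. Total counts were 31047344 to 38216877 per library, and intervals rest on the spread between mice.

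The members and lists were chosen with earlier results of these data known. Named beside the members are list genes with an unadjusted p under 0.05, the most and least abundant of a list, and the 3 genes most like each member. Gm22133, Gpx1, Klf1, Alas2, Ermap, Rhag, Emcn, Stab2, Tek, Ighm, Fech, Trf, Steap4, Bmp6, Cp, Tfr2, Slc25a37, Cldn1 and Srgn were also named after their values were seen. Alternatives were other scalings (RLE, upper quartile, total counts), other filters (filterByExpr, none), DESeq2 1.42.0 (likelihood ratio and Wald tests), limma-voom (limma 3.58.1), each library left out, a term for the title number group, the replicate number as a block and summed pseudogene counts. The subtraction and the addition of Gm22133, the leave-one-out of the Gclm to Gclc ratio and the principal transcript length were added after the data were seen. Results for a few further genes are not reported here. The study's single-cell data were not used here.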

Additional observations from a re-analysis of the deposited data

Results flagged for a closer look

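Of 88 groups of 4 libraries examined (44 genes in CTR and in cKO), 4 held a library whose gap to the nearest other over the group's range exceeded Dixon's 95% critical value, and chance alone would give about 4.4. None of them concerned the 10 genes. Gpx3 stood at 11645 CPM in cKO2, against 3191 to 4452 CPM in the other cKO libraries. Hp stood at 4867 CPM in CTR3, against 7567 to 8096 CPM in the other CTR libraries. Steap3 stood at 51.5 CPM in CTR2, against 16.1 to 18.4 CPM. Slc7a11 stood at 1.38 CPM in CTR2, against 0.0268 to 0.226 CPM, a level at which single reads count.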

How the results depend on the processing

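No member passed the adjusted threshold under any alternative in either comparison. Of 182 values of members recomputed for genotype, 175 kept their direction and 7 changed it, and of 172 for title number, 165 kept it and 7 changed it, all 14 when 1 library was left out. Without each library in turn, the genotype log2 difference ranged from -0.18 to 0.52 for Tfrc (-0.019 without CTR1, -0.18 without CTR4, -0.17 without cKO3), from -0.014 to 0.099 for Fth1 (-0.0085 without CTR4, -0.014 without cKO1), from -0.3 to 0.083 for Mt1 and from -0.45 to 0.13 for Mt2, the last pair changing sign without CTR2. The title number difference ranged from -0.38 to 0.81 for Tfrc (-0.27 without CTR3, -0.25 without CTR4, -0.38 without cKO3), from -0.013 to 0.24 for Ftl1 (-0.0043 without CTR4, -0.013 without cKO3), from -0.28 to 0.16 for Mt1 and from -0.69 to 0.068 for Mt2, again with the sign changing without CTR2. The unadjusted p of Gclm between genotypes ranged from 0.00222 to 0.0736 when each library was left out, in edgeR.

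Over all genes, the count past the threshold between genotypes was 0, and 1 with filterByExpr, 1 without a filter, 22 with DESeq2's likelihood ratio test and 23 with its Wald test, and it stayed at 0 without each library. The count for title number was 2, and 1 with RLE size factors, 4 without a filter, 342 with DESeq2's likelihood ratio test, 380 with its Wald test and 0 without a genotype term. It ranged from 0 to 4 without each library (0 without CTR1, CTR2 or cKO4, 1 without CTR4 or cKO2, and 4 without CTR3 or cKO3). The cause of these differences was not tested. The paper reports genes that differ between these genotypes in bulk MSPCs, from a DESeq2 fit corrected for batch. The DESeq2 fits between genotypes made here had no batch term, so that fit was not repeated. Deviations of same-numbered libraries correlated at 0.131, 0.176, 0.0844 and 0.0572, so the replicate numbers were not taken to pair them, and a replicate block gave 0 genes (812 at an unadjusted p under 0.05). No paired analysis was possible for the title number because its groups hold different replicate numbers. At the lowest count of each member, counting alone gives a coefficient of variation from 0.285% (Fth1) to 14.7% (Tfrc), beside 8.96% (Fth1) to 59.4% (Tfrc) between libraries.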

Other observations

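Gpx1, which encodes the cytosolic glutathione peroxidase and belongs to the peroxide enzymes, was chosen after its values were seen. It stood at 193 to 219 CPM in CTR3, CTR4 and cKO3 and at 24.0 to 37.6 CPM in the other 5 libraries, with no value between. This division follows neither genotype nor title number, and it is another one than that of Ftl1 and Gm22133. It was not tested.

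CTR2, which was highest for Mt1 and Mt2, was also the highest library for the glucocorticoid target Per1 (33.8 CPM, against 8.88 to 30.3 CPM in the others) and held the highest Gclc (43.4 CPM) and the lowest Gclm (20.9 CPM) and Slc40a1 (341.9 CPM). For the glucocorticoid target Tsc22d3, however, cKO2 was highest (675 CPM, against 470 CPM in CTR2).

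The 10 genes together made up 0.483% to 0.612% of the scaled counts of a library, most of it Fth1, with the lowest share in CTR4 and the highest in cKO1.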
